A study of Mus musculus with 12 samples.

Results

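RNA levels of the proteasome genes were followed in the liver across genotype (WT or Pctp-/-) and diet (chow or MCD, deficient in methionine and choline). Members were the protein-coding genes of the expression table whose symbol is Psma, Psmb, Psmc, Psmd, Psme, Psmf or Psmg followed by a number, without the immunoproteasome genes Psmb8, Psmb9 and Psmb10. This gave 45 of the 35275 genes in the table. A gene was tested where its mean over all libraries was at least 0.5 FPKM (fragments per kilobase of transcript, scaled to the mapped fragments of the library), which 12466 genes met, 43 of the 45 members among them. The other two were Psma8, the alpha subunit of the testis, which stayed between 0.132 and 0.838 FPKM, and Psmb11, the beta subunit of the thymus, which was listed at 0 in all 12 libraries.

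The proteasome degrades proteins that have been tagged with ubiquitin. Its 20S core is a barrel of stacked rings, in which alpha subunits form the gate at either end and beta subunits form the catalytic chamber. The 19S regulatory particle caps the barrel, with a base that holds the ring of ATPases that unfold substrates and a lid that removes ubiquitin. Other caps, the activators PA28 and PA200, open the gate without ubiquitin. Dedicated chaperones assemble the core and the base, and the transcription factors NRF1 and NRF2, encoded by Nfe2l1 and Nfe2l2, are known to raise proteasome genes when degradation falls short or under oxidative stress.

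Each of the 4 groups held livers from 3 male mice, and each liver gave 1 RNA-seq library. The mice were WT or carried a whole-body knockout of Pctp, the gene of a soluble carrier of phosphatidylcholine, and ate chow or the MCD diet, which is a standard model of steatosis. Strain, age and length of MCD feeding are not given in the sources used here for these mice, and the deletion was not limited to 1 cell type. The groups are called WT on chow, Pctp-/- on chow, WT on MCD and Pctp-/- on MCD.

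Uniquely mapped reads ranged from 30486576 to 55179468 per library. The chow and MCD libraries stood apart in sequencing quality: 77.59 to 79.41% of the reads of a chow library mapped uniquely, against 85.66 to 87.55% for MCD, and the share of bases at Q30 was 86.29 to 87.1% against 93.47 to 94.58%. Reads of the chow libraries had a GC content of 49.83 to 51.24%, those of MCD 48.42 to 49.16%. The labels name no sequencing batch, so that the diet and this difference between the libraries cannot be told apart in any comparison of MCD with chow. Comparisons of Pctp-/- with WT within 1 diet do not cross it. Pctp itself was at 1.21 to 2.65 FPKM in WT on chow and 0.33 to 0.566 in Pctp-/- on chow, and at 3.61 to 7.9 in WT on MCD and 0.156 to 0.329 in Pctp-/- on MCD, so every library lay on the side of its label.

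Marker genes placed all libraries as liver, and the markers of other cells also moved with the diet. Alb, the main secreted product of hepatocytes, was at 26290 FPKM or above in every library. The summed FPKM of 6 hepatocyte markers was 40087 to 45016 on chow, 52592 to 59644 in WT on MCD and 67499 to 73737 in Pctp-/- on MCD, although 4 of the 6 fell and 1 rose with MCD in WT, and 3 fell and 1 rose in Pctp-/-. The 6 macrophage markers summed to 58.5 to 158 in chow livers against 253 to 512 in MCD livers, with 5 called higher in WT and 2 in Pctp-/-. The 6 stellate cell and fibroblast markers summed to 29.8 to 57.7 against 131 to 193, with 2 called higher in each genotype. Cholangiocyte markers (5) summed to 10.6 to 19.5 against 13.7 to 25.5, endothelial markers (5) to 39.9 to 62.4 against 48.1 to 66.2, and lymphocyte markers (5) to 0.987 to 3.57 against 3.6 to 7.28. None of the markers was at 0 in all libraries, and their part in the diet effects below was not tested. In whole liver, fewer cells of a type and less RNA per cell cannot be told apart.

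In WT livers on chow the tested subunits of the core and the 19S cap ranged from 19.5 FPKM for Psmd14 to 117 for Psmb4. The chaperones and the inhibitor were lower, at 17.5 FPKM or below. FPKM is scaled by transcript length, which allows only a rough comparison of levels between genes. Psmb4, a beta subunit without catalytic activity, led with 117 ± 4.21 FPKM (SD, n = 3), followed by the catalytic subunits Psmb6 with 113 ± 6.77 and Psmb7 with 95.7 ± 8.61. The ranges of Psmb4 and Psmb6 over the 3 livers overlapped, at 113 to 121 and 108 to 121 FPKM, so their order is not settled. At the low end were the base chaperones Psmd5 with 9.37 ± 0.903 and Psmd10 with 7 ± 1.23, the inhibitor Psmf1 with 8.44 ± 0.187, and the core chaperone Psmg3 with 1.48 ± 0.22 FPKM. All 45 members together summed to 1908 to 2047 FPKM in WT on chow, 1971 to 2126 in Pctp-/- on chow, 2682 to 2873 in WT on MCD and 2273 to 2531 in Pctp-/- on MCD. The sums of the 2 diets did not overlap, and on MCD the sums of the 2 genotypes did not overlap either in FPKM as deposited. That separation of the genotypes depends on the scaling. Division by the median-of-ratios factors puts WT on MCD replicate 1 (2682, factor 1.14) below Pctp-/- on MCD replicate 3 (2531, factor 1.02). On MCD 70.3% of all tested genes were lower in Pctp-/- than in WT.

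**Figure D1:**
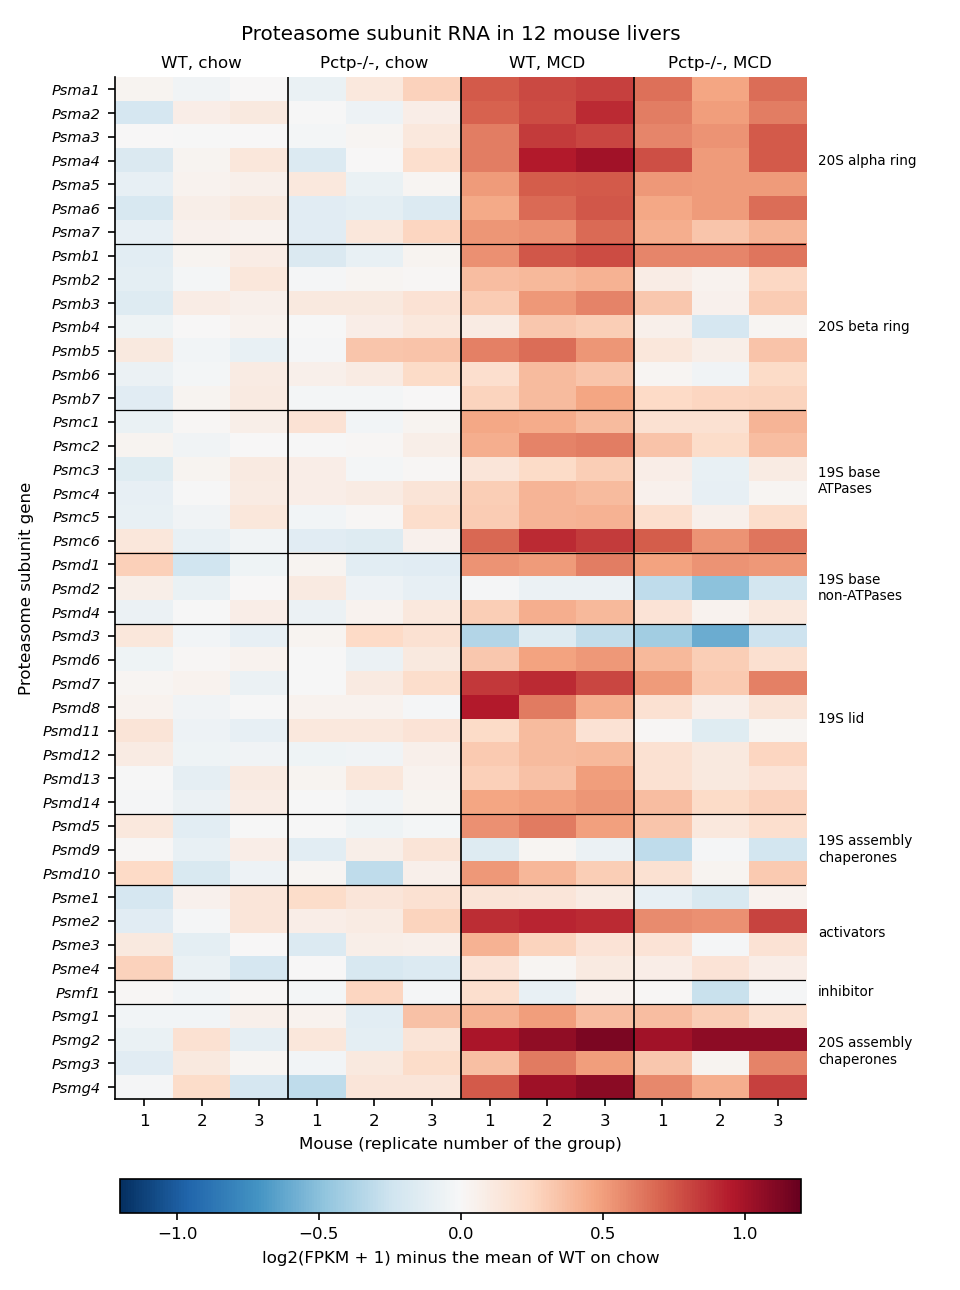
Colour gives log2(FPKM + 1) minus the mean of the 3 WT livers on chow, for each of the 43 tested proteasome genes (rows, grouped by role) in each of the 12 livers (columns, by group and replicate number). Most rows are red in all 3 WT livers on MCD and paler in the 3 Pctp-/- livers on MCD, while Psmd3 is blue in both MCD groups.

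The MCD diet in WT mice came with more RNA of most proteasome genes, which asks how the diet changed the liver in animals with Pctp. Of the 43 members tested, 37 rose and 1 fell (limma, adjusted p under 0.05), where 34.5% of all tested genes rose and 22.5% fell. The median log2 difference, taken on FPKM + 1 throughout, was 0.44 over the members and 0.11 over all tested genes. In 37 members every MCD library was above every chow library and in 1 below, as in 37.7% and 26% of all tested genes. The shift of 0.11 in all genes was absent under scaling by median of ratios, where 25 members rose and 1 fell, with 28.4% of all genes rising and 28.3% falling, and the median of the members was then 0.30. A correction for GC content and transcript length left 22 members higher and 0 lower, beside 27.1% and 24.9% of all genes.

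Promoter sequences are shown for the risers with the largest log2 difference in WT that have a RefSeq window (GRCm38.p6, 250 bases before to 50 after the start, 37 of the 45 members matched), because proteasome genes are known to be regulated through elements there. Psmd7 had no entry, as Psma8, Psmb1, Psmb2, Psmb7, Psmc3, Psmd3 and Psmg2. Capitals mark matches on either strand to 4 motifs. The letters TGACNNNGC are the core of the antioxidant response element bound by NRF1 and NRF2. The CCAAT box is searched by these letters, the GC box by the letters GGGCGG, and the ETS site by the letters CCGGAAG. The windows are chr13:34162714-34163013 on the plus strand for Psmg4, chr14:55591052-55591351 on the minus strand for Psme2 (the first of its 2 windows), chr9:54950609-54950908 on the plus strand for Psma4 and chr14:45329574-45329873 on the plus strand for Psmc6.
Psmg4: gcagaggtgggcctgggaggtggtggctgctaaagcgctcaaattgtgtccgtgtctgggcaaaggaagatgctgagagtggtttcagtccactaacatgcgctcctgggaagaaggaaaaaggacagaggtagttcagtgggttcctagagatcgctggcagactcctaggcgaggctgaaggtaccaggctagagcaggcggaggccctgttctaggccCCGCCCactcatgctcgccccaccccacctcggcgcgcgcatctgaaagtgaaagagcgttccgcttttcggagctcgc
Psme2: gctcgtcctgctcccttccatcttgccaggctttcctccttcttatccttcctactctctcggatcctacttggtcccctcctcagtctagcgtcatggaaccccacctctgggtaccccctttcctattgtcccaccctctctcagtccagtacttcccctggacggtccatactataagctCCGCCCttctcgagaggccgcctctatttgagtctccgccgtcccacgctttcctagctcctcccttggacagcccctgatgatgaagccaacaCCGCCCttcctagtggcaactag
Psma4: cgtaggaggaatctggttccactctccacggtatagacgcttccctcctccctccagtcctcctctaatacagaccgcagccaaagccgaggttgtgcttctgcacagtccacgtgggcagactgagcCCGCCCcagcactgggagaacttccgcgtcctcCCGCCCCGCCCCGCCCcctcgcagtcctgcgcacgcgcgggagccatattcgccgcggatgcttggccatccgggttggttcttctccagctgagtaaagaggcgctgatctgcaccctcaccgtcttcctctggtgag
Psmc6: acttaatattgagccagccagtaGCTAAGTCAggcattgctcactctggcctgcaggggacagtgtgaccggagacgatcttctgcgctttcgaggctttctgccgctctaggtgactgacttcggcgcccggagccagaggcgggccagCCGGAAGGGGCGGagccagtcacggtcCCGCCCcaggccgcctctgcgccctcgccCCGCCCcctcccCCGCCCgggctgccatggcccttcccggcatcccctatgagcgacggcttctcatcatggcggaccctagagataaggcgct

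Of these windows, that of Psmc6 held an antioxidant response element core and an ETS site, and each of the 4 held at least 1 GC box. Over the 40 windows of the 37 members, the antioxidant response element core was in 6, or 15%, against 12.4% of all 32851 promoter windows. Those 6 were Psmb5, Psmb6, Psmc6, Psmd9, Psmd12 and Psme4. CCAAT was in 32.5% against 37.4%, the GC box in 57.5% against 35.7% and the ETS site in 37.5% against 8.86%. The AP-1 letters TGACTCA were in 2.5% against 5.2%. The CRE letters TGACGTCA were in 0 of 40 windows against 1.79%. The TATA letters TATAAA were in 7.5% against 13.6%. TGACNNNGC can overlap TGACTCA, and a GC box can overlap another. The 6 tested members with the antioxidant core had a median log2 difference of 0.33 with MCD in WT, from −0.07 to 0.81, and 4 of them rose. The 30 others with a window had 0.49, from −0.05 to 0.95, and 27 rose. Matches are letters in a window and do not show binding.

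The largest rise with MCD in WT belonged to Psmg2, a chaperone that pairs with Psmg1 to assemble the alpha ring. Its level was 11.3, 13.8 and 11.1 FPKM in WT on chow and 24.7, 26.2 and 27.4 in WT on MCD. In Pctp-/- mice it was 13.3, 11 and 13.5 on chow and 25.1, 26.3 and 26.3 on MCD. All 6 MCD livers were thus above all 6 chow livers. The log2 difference was 1.06 ± 0.10 (SE) in WT with adjusted p = 6.19e-06, and 0.99 ± 0.10 in Pctp-/- with adjusted p = 1.37e-05.

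Psmg4, the partner of Psmg3 in a further chaperone of the alpha ring, was next. It was at 13.8, 16.5 and 12 FPKM in WT on chow and at 24, 29.4 and 30.7 in WT on MCD, a log2 difference of 0.95 ± 0.16 (adjusted p = 0.000323). The Pctp-/- livers held 11.1, 15.6 and 15.6 FPKM on chow and 21.3, 19.3 and 25.4 on MCD, a log2 difference of 0.61 ± 0.16 (adjusted p = 0.00672). The diets did not overlap in either genotype, and the MCD livers of the 2 genotypes overlapped. Psmg1 (0.43 ± 0.11) and Psmg3 (0.49 ± 0.15) also rose in WT, so that all 4 core chaperones did, while in Pctp-/- only Psmg2 and Psmg4 passed the test and Psmg1 and Psmg3 were at 0.20 ± 0.11 and 0.21 ± 0.15. The shares of all tested genes that rose were 34.5% in WT and 26% in Pctp-/-.

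Psme2, the beta subunit of the PA28 activator, rose without its partner. Psme2 was at 58.5, 63.8 and 71.5 FPKM in WT on chow and at 120, 122 and 121 on MCD, and at 68, 68.9 and 77.9 in Pctp-/- on chow and 95.8, 94.4 and 114 on MCD. The log2 difference was 0.90 ± 0.10 in WT (adjusted p = 1.74e-05) and 0.50 ± 0.10 in Pctp-/- (adjusted p = 0.00164). Psme1, the alpha subunit that alternates with it in the same ring, was at 30.3, 36.3 and 38.7 FPKM in WT on chow and 39, 38.7 and 37.5 on MCD (log2 difference 0.13 ± 0.10, adjusted p = 0.265). In Pctp-/- it was at 40.9, 38.7 and 39.9 on chow and 32.6, 30.7 and 35.9 on MCD, a fall of −0.26 ± 0.10 (adjusted p = 0.0404) that 11 of 23 alternative analyses did not call.

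The ratio of Psme2 to Psme1 was accordingly 1.66 to 1.95 in the 6 chow livers and 2.94 to 3.22 in the 6 MCD livers, with no overlap. This ratio was chosen after the values were seen and carries no test. Both genes lie on chromosome 14, at chr14:55578123-55581529 for Psme1 on the plus strand and chr14:55587441-55591113 for Psme2 on the minus strand (GRCm38). Psme2b, an annotated near copy of Psme2, was at 6.16 to 8.01 FPKM in WT on chow and 6.6 to 7.27 in WT on MCD, and reads that could not be told between the copies may have been counted for either.

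Among the other caps, Psme3, the nuclear PA28 subunit, rose in WT (0.28 ± 0.11, adjusted p = 0.0385), a call lost in 9 of 23 alternatives with adjusted p up to 0.203, and was at 0.12 ± 0.11 in Pctp-/-. Psme4, which encodes PA200, was not called in either genotype, with 0.10 ± 0.12 in WT and 0.22 ± 0.12 in Pctp-/-. Psmf1, the inhibitor PI31, was at 0.05 ± 0.12 in WT and −0.16 ± 0.12 in Pctp-/- and passed the test in neither.

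In the alpha ring all 7 tested genes rose in both genotypes, beside 34.5% of all tested genes in WT and 26% in Pctp-/-. The log2 differences of the 7 lay between 0.59 and 0.86 in WT and between 0.31 and 0.69 in Pctp-/-. Psma4 moved most in WT, from 67.3, 78.1 and 83.8 FPKM on chow to 117, 148 and 154 on MCD (log2 difference 0.86 ± 0.13, adjusted p = 0.000186). In Pctp-/- it went from 67.7, 76.5 and 87.6 to 131, 109 and 127 (0.66 ± 0.13, adjusted p = 0.00144). The diets did not overlap in either genotype, and the 2 genotypes overlapped on each diet. Psma2 (0.79 ± 0.10) and Psma1 (0.78 ± 0.10) followed in WT, and Psma6 (0.69 ± 0.11) and Psma3 (0.58 ± 0.09) were high in Pctp-/-. With the correction for GC content and length, 7 alpha genes rose in WT and 3 in Pctp-/-, beside 27.1% and 20.7% of all genes. In Pctp-/- Psma4 was then at 0.28 (adjusted p = 0.0562) and, with Psma1, Psma2 and Psma3, was no longer called.

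In the beta ring all 7 tested genes rose in WT, by 0.24 to 0.70, beside 34.5% of all tested genes. In Pctp-/- 2 of the 7 rose, near the 26% of all tested genes, and the range was −0.11 to 0.69. The smallest rise in WT, that of Psmb4, was lost in 13 of 23 alternatives. The 2 called in Pctp-/- were Psmb1, a structural subunit, and Psmb7, which carries the trypsin-like activity. Psmb1 was at 0.70 ± 0.09 in WT and 0.69 ± 0.09 in Pctp-/-, and Psmb7 at 0.37 ± 0.09 and 0.27 ± 0.09. After the correction for GC content and length Psmb7 was at −0.01 in WT and −0.15 in Pctp-/- and was called in neither. The counts for the ring were then 2 of 7 higher in WT, near the 27.1% of all genes. In Pctp-/- they were 1 higher and 1 lower, beside 20.7% and 22.4% of all genes.

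Psmb5, the chymotrypsin-like subunit and the main target of proteasome inhibitors, rose in WT and did not pass the test in Pctp-/-. It was at 52.7, 47.3 and 45.5 FPKM in WT on chow and 74.1, 77.5 and 70.4 on MCD (log2 difference 0.60 ± 0.11, adjusted p = 0.000761). In Pctp-/- it was at 47.8, 61.1 and 61.8 FPKM on chow and 53.3, 51 and 61.6 on MCD (−0.04 ± 0.11, adjusted p = 0.815), so the diets overlapped there. The difference between the genotypes itself was −0.64 ± 0.16, the largest in size of the members, and did not pass the test (adjusted p = 0.131). Psmb6, the caspase-like subunit, was at 0.31 ± 0.10 in WT (adjusted p = 0.0166), lost in 4 of 23 alternatives with a log2 difference down to 0.06, and −0.05 ± 0.10 in Pctp-/- (adjusted p = 0.665).

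The sums of the rings differed in proportion between the diets. Summed FPKM of the beta genes divided by that of the alpha genes was 1.37 to 1.47 in the 6 chow livers and 1.08 to 1.15 in the 6 MCD livers. The alpha sum was 379 to 436 in WT on chow, 389 to 447 in Pctp-/- on chow, 623 to 733 in WT on MCD and 577 to 640 in Pctp-/- on MCD. The beta sum was 544 to 607, 572 to 631, 719 to 807 and 629 to 706 in the same order. The median log2 difference of the alpha genes exceeded that of the beta genes by 0.36 in WT and 0.48 in Pctp-/-, and by 0.26 to 0.38 and 0.35 to 0.51 over 23 alternative analyses each, scalings and the GC and length correction included. Median GC content of the longest annotated transcript was 45% for the alpha genes and 51% for the beta genes. The comparison of the rings was chosen after the values were seen and carries no test.

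**Figure D2:**
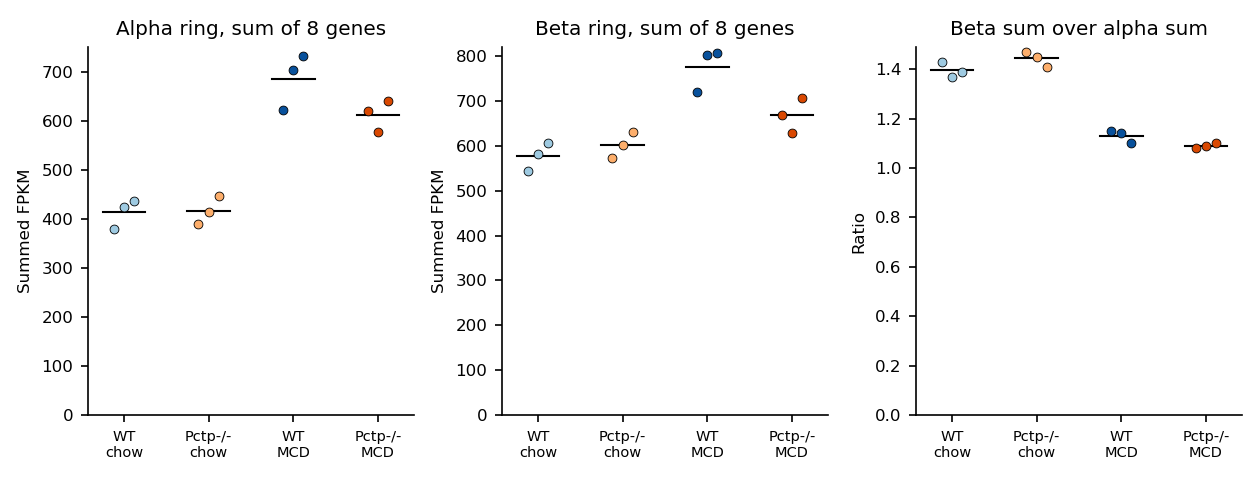
Points give the 3 livers of each group and the line their mean, for the summed FPKM of the 8 alpha ring genes, of the 8 beta ring genes, and for the ratio of the beta to the alpha sum (all axes start at 0). The ratio is 1.37 to 1.47 in the chow livers and 1.08 to 1.15 in the MCD livers.

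Of the ATPases of the 19S base, all 6 rose in WT, by 0.23 to 0.81, beside 34.5% of all tested genes. In Pctp-/- 2 of 6 rose, near the 26% of all tested genes. After the GC and length correction 3 and 0 of the ATPases were called, beside 27.1% and 20.7% of all genes that rose. Psmc3, the smallest rise in WT, was lost in 15 of 23 alternatives. Psmc6, whose promoter is printed above, led, at 35.8, 30.5 and 31.5 FPKM in WT on chow and 53.1, 61.5 and 59 on MCD (0.81 ± 0.10, adjusted p = 2.82e-05), and at 29.5, 29.2 and 33.7 in Pctp-/- on chow and 54.4, 47.7 and 51.3 on MCD (0.71 ± 0.10, adjusted p = 9.39e-05). The chow and MCD livers did not overlap in either genotype. Psmc2 was the other to rise in both genotypes, with 0.55 ± 0.08 in WT and 0.29 ± 0.08 in Pctp-/-; in Pctp-/- the correction for GC content and length gave −0.08 for Psmc2 and 0.17 for Psmc6 (adjusted p = 0.0986), and neither was called.

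The scaffold subunits of the base differed from each other. Psmd1, a large docking subunit, rose in WT (0.55 ± 0.12, adjusted p = 0.00161) and in Pctp-/- (0.59 ± 0.12, adjusted p = 0.00126). Psmd2, the related ubiquitin-binding scaffold, was at −0.05 ± 0.09 in WT (adjusted p = 0.666) and fell in Pctp-/- by −0.32 ± 0.09 (adjusted p = 0.0121), from 71.9, 63.9 and 61.9 FPKM to 53.7, 47.1 and 56.9. Psmd4, a ubiquitin receptor, rose in WT (0.37 ± 0.08) and was at 0.08 ± 0.08 in Pctp-/-.

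In the lid 7 of 8 genes rose in WT and 1 fell, beside 34.5% and 22.5% of all tested genes. In Pctp-/- 3 rose and 1 fell, beside 26% and 24.4%. With the GC and length correction the counts were 3 higher and 0 lower in WT, beside 27.1% and 24.9% of all genes. In Pctp-/- they were 1 higher and 2 lower, beside 20.7% and 22.4%. Psmd11 in WT was lost in 9 of 23 alternatives. Psmd7, the inactive partner of the deubiquitinase, was at 40.6, 41.3 and 38.1 FPKM in WT on chow and 72.6, 75.4 and 70.3 on MCD (0.85 ± 0.09, adjusted p = 1.4e-05). In Pctp-/- it was at 39.9, 43.1 and 46.3 on chow and 57.5, 50 and 61.5 on MCD (0.38 ± 0.09, adjusted p = 0.0053). All MCD livers exceeded all chow livers, and on MCD all WT livers exceeded all Pctp-/- livers. Psmd14, the deubiquitinase of the lid, rose by 0.50 ± 0.08 in WT (adjusted p = 0.000215) and 0.30 ± 0.08 in Pctp-/- (adjusted p = 0.00749); after the GC and length correction the latter was −0.11 and not called.

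Psmd3, a structural subunit of the lid, went the other way. It was at 48.4, 43 and 41 FPKM in WT on chow and 34.2, 39.4 and 35.8 on MCD (−0.27 ± 0.11, adjusted p = 0.0494), and at 45, 52 and 50 in Pctp-/- on chow and 32.7, 28.9 and 36.8 on MCD (−0.57 ± 0.11, adjusted p = 0.000918). Every MCD liver was below every chow liver. The fall in WT was lost in 12 of 23 alternative analyses, with log2 differences from −0.41 to −0.16, and that in Pctp-/- in none.

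The chaperones of the base split as well. Psmd5 rose in WT (0.55 ± 0.09, adjusted p = 0.000342) and Pctp-/- (0.25 ± 0.09, adjusted p = 0.0421), the latter lost in 12 of 23 alternatives. Psmd10 rose in WT (0.41 ± 0.14), which was lost in 7 of 23 alternatives with a log2 difference down to 0.03, and was at 0.25 ± 0.14 in Pctp-/-, and Psmd9 was at −0.07 ± 0.11 and −0.21 ± 0.11 and passed the test in neither.

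**Figure D3:**
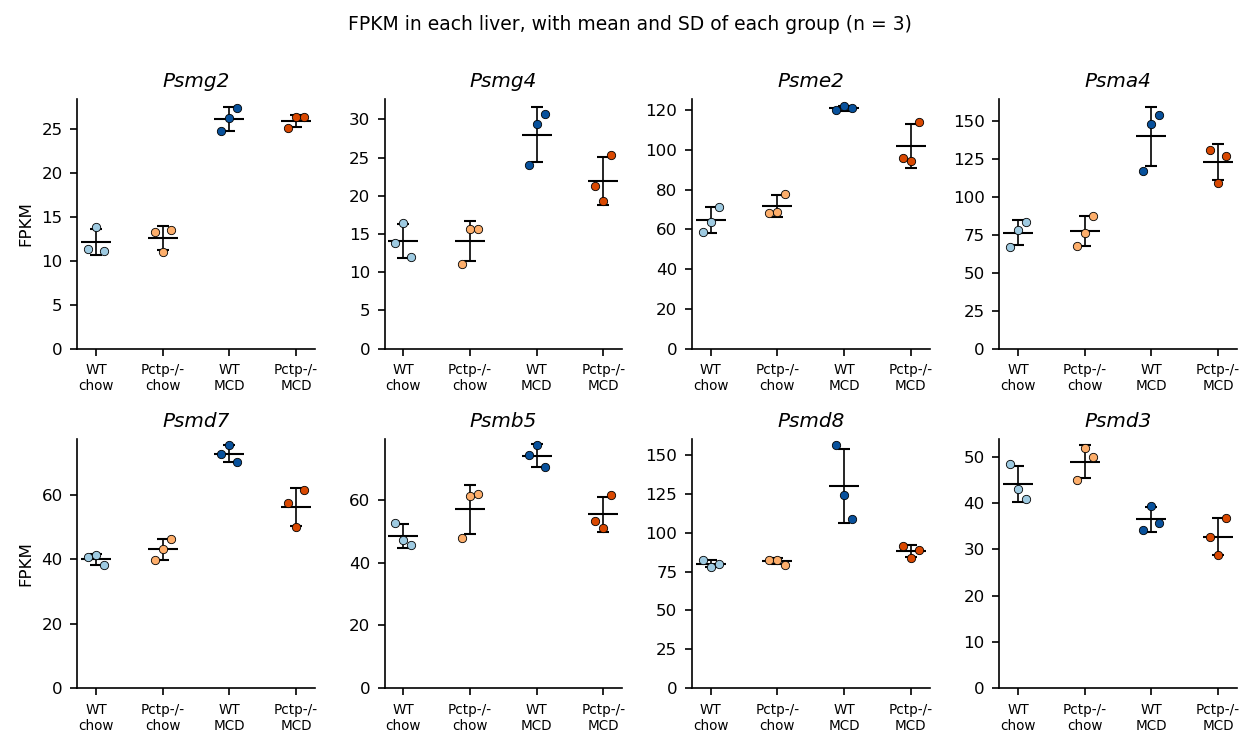
FPKM (vertical axes, from 0) of 8 proteasome genes in each liver, by group, with a bar for the mean and whiskers for the SD over 3 mice. Psmg2, Psmg4, Psme2, Psma4 and Psmd7 are higher in every MCD than in every chow liver of both genotypes, Psmb5 is higher with MCD in WT without overlap, Psmd8 spreads from 109 to 156 in WT on MCD, and Psmd3 is lower with MCD.

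In Pctp-/- mice the MCD diet changed fewer members. Of 43, 19 rose and 3 fell, where 26% of all tested genes rose and 24.4% fell, and the median log2 difference was 0.21 over the members and 0.04 over all tested genes. The falls were Psmd3, Psmd2 and Psme1. In 24 members every MCD liver was above every chow liver and in 5 below, as in 32.3% and 27.5% of all tested genes. All 19 that rose in Pctp-/- also rose in WT, and they were 19 of the 37 that rose in WT. Of all tested genes, 87.2% of those that rose in Pctp-/- also rose in WT, and 65.6% of those that rose in WT also rose in Pctp-/-. These comparisons share no library, but both cross the difference in read quality between the diets. Another 18 members rose in WT and did not pass the test in Pctp-/-, among them 5 of the 7 beta genes, 4 of the 6 ATPases, and Psmd8, Psmd11, Psmd12 and Psmd13 of the lid. Psmd9, Psme4 and Psmf1 were called in neither. With the GC and length correction 9 members rose and 4 fell in Pctp-/-, beside 20.7% and 22.4% of all genes.

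**Figure D4:**
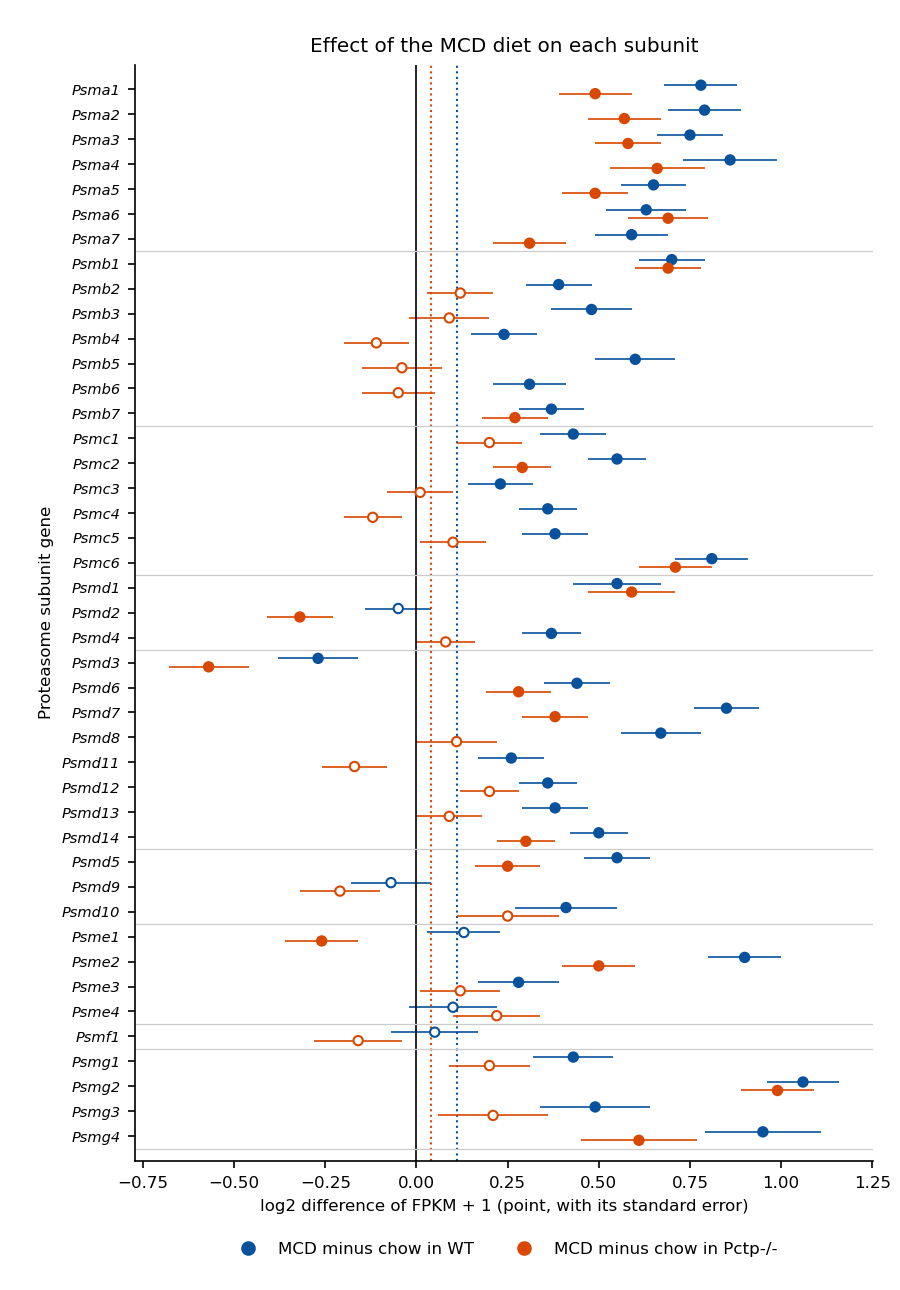
Points give the log2 difference of FPKM + 1 between MCD and chow for each tested proteasome gene, with its standard error, in WT (blue) and Pctp-/- (orange) mice, 3 livers per group. Filled points passed the test, and dotted lines mark the medians of all tested genes, 0.11 and 0.04; blue lies to the right of orange for 40 of 43 genes.

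The difference of the diet effects between the genotypes was then tested for each member. It was negative, with the larger value in WT, in 40 of 43 members, as in 64.6% of all tested genes, and its median was −0.26 over the members and −0.10 over all tested genes. No member passed the test, and 0.0963% of all tested genes did (limma). At an unadjusted p under 0.05 there were 15 members, all negative, or 34.9%, beside 15.1% of all tested genes in either direction and 11.2% in the negative one. This number rested on the libraries and the scaling: it was 7 without WT on MCD replicate 2 or Pctp-/- on MCD replicate 2, 10 without WT on chow replicate 2 or WT on MCD replicate 3, 7 under quantile scaling and 5 under median of ratios. These were 5 of 7 beta genes, 4 of 8 lid genes, 2 of 6 ATPases, 2 of 4 activators, 1 base scaffold gene, 1 base chaperone and none of the 7 alpha genes. After Psmb5 the largest in size were Psmd8 (−0.57 ± 0.16, adjusted p = 0.142), Psmc4 (−0.48 ± 0.12, adjusted p = 0.121) and Psmd7 (−0.47 ± 0.13, adjusted p = 0.143). Thus the call of a member in WT and not in Pctp-/- does not show that its response differed between them.

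On chow very few of all tested genes were called with the knockout, and no proteasome gene was among them. None of the 43 members passed the test (limma) and 0 had an unadjusted p under 0.05, beside 0.136% and 6.98% of all tested genes. The log2 differences between Pctp-/- and WT ranged from −0.14 for Psma6 to 0.22 for Psmb5, each with a standard error of 0.11, and their median was 0.03 against 0.01 over all tested genes, with 30 members positive (51.8% of all tested genes). In 1 member, Psmb3, every Pctp-/- liver was above every WT liver (60.7, 60.6 and 63.4 against 50.3, 59.8 and 58.3 FPKM), where 5.17% of all tested genes were.

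On MCD the members were lower in Pctp-/- than in WT by a small amount, and 1 passed the test. The log2 difference was negative in 42 of 43 members, as in 70.3% of all tested genes, with a median of −0.20 against −0.09. At an unadjusted p under 0.05 there were 18 members, all negative, or 41.9%, beside 13% of all tested genes in that direction. Without Pctp-/- on MCD replicate 2 there were 9, without WT on MCD replicate 3 there were 10, without replicate 2 of that group 11, and without its replicate 1 there were 26. Quantile scaling and the GC and length correction gave 10 each. In 22 members every Pctp-/- liver was below every WT liver, as in 21.1% of all tested genes. The member that fell was Psmd8, a lid subunit, beside 0.521% of all tested genes in that direction and 0.818% in either.

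Psmd8 was at 156, 124 and 109 FPKM in WT on MCD and at 91.1, 83.8 and 89.1 in Pctp-/- on MCD, a log2 difference of −0.54 ± 0.11 (adjusted p = 0.0471). On chow it was at 82.7, 77.7 and 79.9 in WT and 82.7, 82.6 and 79.3 in Pctp-/-. The WT livers on MCD spread most, and the lowest of them was above all other livers. The liver at 156 FPKM also had the highest sum of macrophage markers, 512 against 253 and 389 in the others of its group. Its stellate cell and fibroblast sum was also highest, at 193 against 131 and 150. So were its cholangiocyte (25.5 against 13.7 and 15.9) and lymphocyte sums (7.28 against 3.6 and 4.46). Its hepatocyte and endothelial sums lay between those of the others. The part of these markers in the difference of Psmd8 was not tested. The call was lost in 19 of 23 alternative analyses, with adjusted p up to 0.202 and log2 differences from −0.65 to −0.40. Without WT on MCD replicate 1, the liver at 156 FPKM, the log2 difference was −0.40 and was not called.

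The next in size were Psmb5 (−0.42 ± 0.11, adjusted p = 0.108), Psmd7 (−0.37 ± 0.09, adjusted p = 0.0898) and Psmc4 (−0.37 ± 0.08, adjusted p = 0.0672), none of them past the threshold. By role, an unadjusted p under 0.05 was reached by 5 of 7 beta genes, 5 of 8 lid genes, 3 of 6 ATPases, 2 of 3 base scaffold genes and 1 of 7 alpha genes. All were negative, and 13% of all tested genes reached it in that direction. Psmg2 was at −0.01 ± 0.10 and Psme4 at 0.01 ± 0.12. Summed over all 45 members, the share of a library's FPKM was 0.525 to 0.544% in WT on MCD and 0.447 to 0.489% in Pctp-/- on MCD, against 0.392 to 0.421% in the chow livers. Under scaling by median of ratios, which removes the shift of all genes, 38 of 43 members remained negative, 6 had an unadjusted p under 0.05 and none was called.

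**Figure D5:**
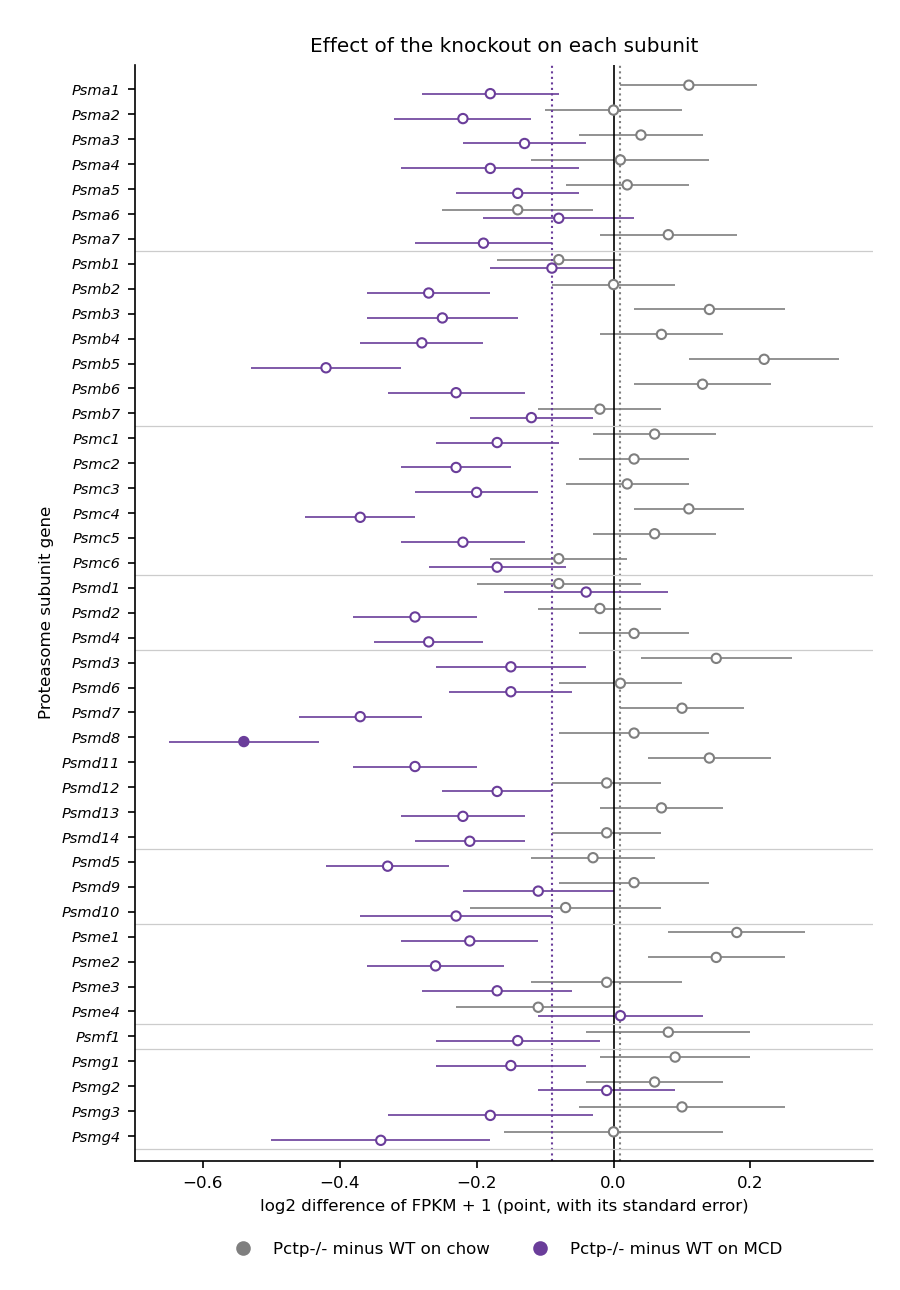
Points give the log2 difference of FPKM + 1 between Pctp-/- and WT for each tested proteasome gene, with its standard error, on chow (grey) and MCD (purple), 3 livers per group. Dotted lines mark the medians of all tested genes, 0.01 and −0.09; the filled point, Psmd8 on MCD at −0.54, is the one that passed the test.

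The immunoproteasome genes encode subunits that replace the catalytic beta subunits in inflamed tissue. Of Psmb8, Psmb9 and Psmb10, only Psmb9 rose with MCD in WT, from 4.13, 4.9 and 5.03 FPKM to 10.7, 8.66 and 9.2 (0.89 ± 0.16, adjusted p = 0.000565). In Pctp-/- Psmb9 was at 7.48, 6.11 and 10.5 on chow and 8.26, 6.85 and 8.63 on MCD (0.01 ± 0.16), and Psmb10 fell (−0.50 ± 0.14, adjusted p = 0.0107). Psmb9 was 0.64 ± 0.16 higher in Pctp-/- than in WT on chow, which did not pass the test (adjusted p = 0.231). The summed FPKM of the 3 divided by that of Psmb5, Psmb6 and Psmb7 was 0.142 to 0.148 in WT on chow, 0.164 to 0.231 in Pctp-/- on chow, 0.12 to 0.154 in WT on MCD and 0.135 to 0.161 in Pctp-/- on MCD, so the MCD groups overlapped each other and WT on chow.

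Among 14 tested partners of the proteasome whose symbols lie outside the rule, 5 rose and 3 fell in each genotype with MCD. This was close to the shares of all tested genes in WT (34.5% and 22.5%), and the shares in Pctp-/- were 26% and 24.4%. In WT the rises were led by Sem1, a small lid subunit (0.89 ± 0.16), and Rad23b, a shuttle for ubiquitinated proteins (0.85 ± 0.08), and the falls by Akirin2, the factor for nuclear import of proteasomes (−0.55 ± 0.17), and Ubqln4, another shuttle (−0.42 ± 0.13). In Pctp-/- these were at 0.62 ± 0.16, 0.69 ± 0.08, −0.89 ± 0.17 and −0.36 ± 0.13, and each passed the test. None of the 14 was called between the genotypes on either diet, where only 0.136% of all tested genes were called on chow and 0.818% on MCD.

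Nfe2l1, whose product drives proteasome synthesis, was at 44.3 ± 2.63 FPKM in WT on chow and 50.7 ± 1.22 on MCD, a log2 difference of 0.19 ± 0.09 that did not pass the test (adjusted p = 0.0719), and at 0.08 ± 0.09 in Pctp-/-. Of the 8 genes of its activation pathway, 1 rose and 2 fell in WT and 0 rose and 3 fell in Pctp-/-. Of all tested genes 34.5% rose and 22.5% fell in WT, and 26% rose and 24.4% fell in Pctp-/-. Ngly1, which deglycosylates NRF1, rose in WT (0.45 ± 0.09), and Ddi2, the protease that cleaves it, fell in WT (−0.39 ± 0.13) and Pctp-/- (−0.39 ± 0.13). Syvn1, a ubiquitin ligase of the endoplasmic reticulum, fell by −1.48 ± 0.56 and −1.44 ± 0.56, and the last overlapped between diets.

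Of 9 tested genes chosen by hand around NRF2, which are NRF2, its inhibitor Keap1 and known targets, 7 rose with MCD in WT and 5 in Pctp-/-, where 34.5% and 26% of all tested genes rose, and none fell. Nfe2l2 rose by 0.57 ± 0.15 in WT (adjusted p = 0.00776) and 0.76 ± 0.15 in Pctp-/- (adjusted p = 0.00156). Srxn1, which repairs oxidised peroxiredoxins, rose by 2.37 ± 0.28 and 0.84 ± 0.28, with 126, 57.7 and 41 FPKM in the WT livers on MCD, of which the first stood apart, against 11.2 to 12.6 in WT on chow. Hmox1, the inducible haem oxygenase, rose by 1.83 ± 0.24 and 1.15 ± 0.24. Of 7 genes of ubiquitin and its E1 enzymes, 3 rose and 1 fell in WT, near the shares of all tested genes. In Pctp-/- 4 of the 7 rose and 1 fell, where 26% of all tested genes rose and 24.4% fell. Rps27a, a fusion of ubiquitin and a ribosomal protein, rose by 1.25 ± 0.12 and 0.96 ± 0.12, and Uba1, the main E1, fell by −0.65 ± 0.12 and −0.74 ± 0.12.

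Variation from mouse to mouse was shared more in some roles than in others. Deviations from the group means over the 12 libraries had a median Pearson correlation of 0.26 over the 903 pairs of tested members, 0.63 over the 91 pairs of core genes and 0.26 over the 136 pairs of genes of the 19S base and lid, against 0.07 over all pairs of tested genes. It was 0.45 over the 15 pairs of ATPases and 0.13 over the 28 pairs of lid genes. The smallest sets rest on few pairs: −0.01 over 6 of activators, −0.17 over 3 of base chaperones and −0.28 over 3 of base scaffolds. These correlations share libraries, depth and scaling and are given as a description. Across the 43 members the log2 difference with MCD in WT had a correlation of −0.26 with GC content and −0.44 with log2 transcript length, and across 12401 tested genes of −0.32 and −0.07. In Pctp-/- these were −0.44 and −0.24 for the members and −0.42 and −0.03 for all. The reads of the MCD libraries were also lower in GC content, as given above.

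By position, 19 of the 45 members overlap another annotated gene, 9 of them on the same strand and 15 on the opposite strand, and the counting is not stated to use strand, so their values are uncertain to that extent. Of the members with values for every liver above, Psma4 overlaps AY074887 on the opposite strand, Psmb5 overlaps Mir686 on the same strand, Psmd3 overlaps Gm12356 and Psme1 overlaps Emc9 on the opposite strand. Psmb3, Psmb6, Psmc5, Psmd3, Psmd11, Psmd12, Psme3 and Psme4 lie on chromosome 11 with Pctp, from 7.72 to 59.2 Mb away. None of these 8 was called in the knockout on either diet. Of all tested genes only 0.136% were called on chow and 0.818% on MCD, so this count tells little about their position.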

How the data were processed

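Liver RNA of 12 male mice, 3 in each of 4 groups by genotype and diet, was sequenced by a service provider from cDNA. The deposited table gives the authors' FPKM of each gene in each library, and another holds read totals and mapping percentages, used here only for depth and quality. The labels name the build mm10, and the aligner, counter and annotation are not given in the sources used here. Groups came from the labels, 0 columns lacked a sample, and no pair of libraries was identical.

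Symbols came from GENCODE M21 (34490 of 35275 identifiers) and promoters from RefSeq. limma 3.58.1 in R 4.3.3 was fitted to log2(FPKM + 1) of the 12466 genes whose average reached 0.5 FPKM, with 1 mean per group and a mean-variance trend, two-sided. Benjamini-Hochberg adjustment ran over all tested genes, and genes with an adjusted p under 0.05 were called at any fold change. Errors of log2 differences are standard errors of this fit. FPKM are not counts, and no count test was run. P-values set a group difference against the spread between mice within the groups, pooled over the groups and moderated over all tested genes. For MCD against chow they do not separate the diet from the difference in read quality. The script was tested on simulated data for MCD against chow in WT, where of 200 changed genes among 12466 it recovered 0% at a log2 change of 0.3, 22% at 0.5 and 84.5% at 1. In the data far more genes changed in this comparison, 34.5% of those tested rising and 22.5% falling. The adjusted p depends on how many genes change, so these recoveries do not describe the data. Tables and figures were made in Python 3.11.15.

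The members, roles and other lists were chosen with earlier results of these data known. Genes named were, for each comparison, up to 8 called members with the largest rise and 8 with the largest fall, the catalytic subunits, Psmd14, the activators and Psmf1, and in the other lists 2 rises and 2 falls with Nfe2l1 and Nfe2l2, and others were chosen after their values were seen. Values of every liver are given for the 5 members that changed most and for others the text turns on. Alternatives changed the pseudocount (0.1), the filter (none, or mean FPKM of at least 5), the scaling (quantile, median of ratios, equal library sums), the libraries in the fit, the replicate block, the variance model (no trend, robust) and a loess correction (span 0.5) for GC content and length. Samples with the same replicate number are different mice.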

Additional observations from a re-analysis of the deposited data

Results flagged for a closer look

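For Psmc4, an ATPase of the base, and Psmd11, a lid subunit, the MCD libraries lay above all chow libraries in WT and below all of them in Pctp-/-. Of all tested genes 37.7% lay above in WT and 27.5% below in Pctp-/-, and the share with both was not counted. Neither fall in Pctp-/- passed the test (limma). The log2 difference there was −0.12 for Psmc4 (adjusted p = 0.26) and −0.17 for Psmd11 (adjusted p = 0.146). Psmc4 was at 35.8, 38.4 and 41.3 FPKM in WT on chow and 47.4, 51.4 and 50.3 on MCD, and at 40.6, 41.1 and 42.9 in Pctp-/- on chow and 39.9, 35.9 and 39.1 on MCD. The difference of the 2 diet effects was −0.48 on the log2 scale and did not pass the test (limma, adjusted p = 0.121). Psmd11 was at 42.3, 36.2 and 35.4 FPKM in WT on chow and 44.7, 49.5 and 42.7 on MCD, and at 41.3, 41.5 and 42.4 in Pctp-/- on chow and 38.3, 34.1 and 38.6 on MCD, with a difference of −0.43 (adjusted p = 0.163). With the correction for GC content and length, the value of Psmd11 in WT was −0.14 and not called.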

How the results depend on the processing

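The number of members called with MCD in WT was 38, and 31 to 38 leaving out any 1 library. It was 22 after the correction for GC content and length, and 26 to 38 under the other alternatives. In Pctp-/- it was 22, 18 to 24 leaving out a library, and 13 after that correction. Of the calls, 18 of 38 in WT and 9 of 22 in Pctp-/- held under every alternative. The same correction turned Psmd11 (−0.14) and Psmb7 (−0.01) in WT, and Psmb7 (−0.15), Psmd14 (−0.11) and Psmc2 (−0.08) in Pctp-/-, none of them called there. With the knockout on MCD 1 member was called, 0 to 1 leaving out a library, 2 at a mean FPKM of at least 5, and 0 with a pseudocount of 0.1, no filter, quantile, median-of-ratios or sum scaling, the libraries of the contrast alone, no trend, or the GC and length correction. On chow and in the difference of the diet effects the count was 0 under every alternative run. On chow the median of the members minus that of all genes was −0.0041 under quantile scaling, against 0.02. The cause of these changes was not tested. Same-numbered libraries correlated at −0.0972 to 0.225 in their deviations. Differently numbered libraries were not compared, so these values cannot tell whether the numbers mark shared handling. With the replicate block 36 members were called with MCD in WT and 22 in Pctp-/-. It gave 0 with the knockout on chow, 1 on MCD, and 0 in the difference. Depth was 30486576 uniquely mapped reads or more, and 3 mice per group limit the precision.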
